A study of Mus musculus with 12 samples.

Results

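The genes described here lie on both sides of *Atf4* on mouse chromosome 15. The 5 members are *Syngr1*, *Tab1* and *Mgat3* before *Atf4* and *Rps19bp1* and *Cacna1i* after it, out of 14159 genes listed in the deposited values. All 5 are listed, and all 5 passed the filter of a mean of at least 10 normalized counts. *Rps19bp1* and *Cacna1i* were selected on their measured difference between cold-exposed Atf4AKO and Atf4WT mice, and the other 3 members by their position. Values of that contrast are therefore given for the members as a description, without a test. The question was whether the changes of *Rps19bp1* and *Cacna1i* go with their position beside the deleted gene, and each member was compared with *Atf4* library by library.

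Messenger RNA of whole inguinal white adipose tissue (iWAT) was sequenced from mice of 2 genotypes at room temperature (RT) and after cold exposure for 24 h. Each of the 4 groups (Atf4WT RT, Atf4AKO RT, Atf4WT cold and Atf4AKO cold) held 3 libraries, numbered 0, 1 and 2. Atf4AKO mice carried floxed *Atf4* alleles and Cre under the *Adipoq* promoter, which is active in adipocytes, on a C57BL/6 background. Atf4WT mice were littermates with the same floxed alleles and no Cre. The age of the sequenced mice and the part of *Atf4* between the loxP sites are not given in the sources used here. The listed genes took 25719476 to 29105147 reads in a library. Atf4WT RT replicate 2 stood apart from the other libraries of its group, with 3650.3 normalized counts over 8 B cell markers against 112 and 89.5, and differences of *Cacna1i* from the Atf4WT RT group are given with and without it. A normalized count is the number of reads of a gene divided by the size factor of its library.

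ATF4 is the transcription factor of the integrated stress response, which raises amino acid synthesis, transport and one-carbon metabolism genes when translation is restrained. RPS19BP1, also called AROS, binds the ribosomal protein RPS19 and acts in assembly of the small ribosomal subunit, and it was also described as a regulator of SIRT1. CACNA1I is the pore subunit of the low-voltage-activated calcium channel Cav3.3, known mainly from neurons of the thalamus. MGAT3 adds the bisecting N-acetylglucosamine to N-glycans, TAB1 binds and activates the kinase TAK1, and SYNGR1 is a membrane protein of synaptic vesicles. Genes that lie together on a chromosome can share regulatory elements, and a deletion inside one of them can also alter transcription of its neighbours.

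The positions are those of the GENCODE annotation of mm10. *Atf4* (NM_009716) is a plus-strand gene at chr15:80255184-80257541. *Rps19bp1* (NM_175109) lies on the minus strand from 80260615 to 80264315, so both genes are transcribed towards each other and their ends are 3074 bp apart. *Cacna1i* (NM_001044308) follows on the plus strand from 80287238 to 80398279, with its start 29697 bp after the end of *Atf4*. Before *Atf4*, the nearest gene is *Mief1* (NM_001357659), a mitochondrial fission factor that is not among the members, with its end 1813 bp from the start of *Atf4*. Then come *Mgat3* (NM_010795) at 39.7 kb, *Tab1* (NM_025609) at 93.5 kb and *Syngr1* (NM_207708) at 135.7 kb, all on the plus strand. *Syngr1* shares 535 bases with *Rpl3*, a ribosomal protein gene on the opposite strand. No annotated gene overlaps *Atf4*, *Rps19bp1*, *Cacna1i*, *Mgat3* or *Tab1*. The libraries were strand-specific, but the strand setting of the counting is not given, so reads from the opposite strand cannot be told apart from reads of these genes.

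The promoters of *Atf4* and of *Rps19bp1* and *Cacna1i*, the members that differed most between the genotypes, are shown as the 250 bases before each start, 5′ to 3′ on the strand of the gene, from RefSeq on GRCm38.p6. They cover chr15:80254934-80255183 on the plus strand, chr15:80264307-80264556 on the minus strand and chr15:80286988-80287237 on the plus strand. The starts are those of RefSeq, and that of *Rps19bp1* differs from its GENCODE start at 80264315. The last bases shown for *Rps19bp1* therefore lie inside the gene as positioned above.
Atf4: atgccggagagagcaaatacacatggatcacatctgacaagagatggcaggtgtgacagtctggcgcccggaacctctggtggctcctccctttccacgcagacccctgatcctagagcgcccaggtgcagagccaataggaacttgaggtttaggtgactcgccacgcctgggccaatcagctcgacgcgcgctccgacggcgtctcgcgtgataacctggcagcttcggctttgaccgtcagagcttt
Rps19bp1: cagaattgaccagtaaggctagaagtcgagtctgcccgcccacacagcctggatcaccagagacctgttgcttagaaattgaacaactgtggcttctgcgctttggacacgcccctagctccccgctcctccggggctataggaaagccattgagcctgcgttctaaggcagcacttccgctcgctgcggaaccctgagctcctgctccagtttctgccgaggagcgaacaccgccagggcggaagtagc
Cacna1i: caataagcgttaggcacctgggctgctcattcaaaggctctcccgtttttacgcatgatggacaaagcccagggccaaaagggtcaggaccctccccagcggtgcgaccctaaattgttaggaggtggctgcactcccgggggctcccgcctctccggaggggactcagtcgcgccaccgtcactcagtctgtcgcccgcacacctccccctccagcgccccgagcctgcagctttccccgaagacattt
The motifs searched were TGATGNAA, the core of the C/EBP-ATF response element, and TGACGTCA, the cAMP response element, on both strands. These 3 sequences hold 0 matches to either motif, as do the *Syngr1* and *Mief1* promoters, the only others of the 7 genes with an entry in the RefSeq table used. Among all 32851 promoters of this length, 3.45% hold TGATGNAA and 1.55% hold TGACGTCA. With 50 bases after the start included, as in the table's 300-base entries, the 5 promoters still hold 0 matches, and the shares of all promoters are 3.97% and 1.79%. This says only that these letters are not in this window.

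The deleted gene was low in every Atf4AKO library. *Atf4* had 5669, 4670.3 and 4107 normalized counts in Atf4WT RT replicates 0, 1 and 2, and 1594, 1470 and 1639 in Atf4AKO RT. After cold exposure it had 7644, 7511 and 5756 in Atf4WT and 1578, 788 and 1179.8 in Atf4AKO. The genotypes did not overlap at either temperature. Atf4AKO iWAT kept 32.6% of the Atf4WT mean at RT and 17.0% after cold exposure. At RT the log2 fold change of Atf4AKO over Atf4WT was −1.61 (standard error 0.22, adjusted p = 0.0762 from limma, 1.35e-09 to 0.517 over the alternatives). The RNA came from whole tissue, which also holds cells in which the *Adipoq* promoter is not active, and in such samples fewer cells of a type and less RNA per cell cannot in general be told apart. White adipocyte markers did not differ with genotype by the DEG threshold, which asks for more than a 1.5-fold change together with an unadjusted p-value below 0.05. This held for 8 of 8 markers with limma, edgeR and DESeq2, and their log2 fold changes ran from −0.56 to 0.26 at RT and from 0.10 to 0.26 after cold exposure, against −1.61 and −2.60 for *Atf4*.

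*Rps19bp1*, the first gene after *Atf4*, was low wherever *Atf4* was low. It had 518, 604 and 496 normalized counts in the 3 Atf4WT RT libraries and 90.2, 104 and 114 in Atf4AKO RT. After cold exposure it had 863, 714 and 613 in Atf4WT and 141, 102 and 82.7 in Atf4AKO. Each Atf4AKO library lay below each Atf4WT library, at RT and after cold exposure. The group means were 540 ± 57.2 (SD, n = 3) in Atf4WT RT, 103 ± 12 in Atf4AKO RT, 730 ± 126 in Atf4WT cold and 109 ± 29.9 in Atf4AKO cold. Atf4AKO iWAT thus held 19.0% of the Atf4WT mean at RT and 14.9% after cold exposure. At RT *Rps19bp1* fell by 2.38 on the log2 scale (standard error 0.20, 95% interval −2.82 to −1.95, adjusted p = 0.00141 from limma, 1.64e-25 to 0.0186 over the alternatives). It was the only 1 of 13404 tested genes (0.00746%) with an adjusted p-value under 0.05 at RT with limma, against 1 with edgeR and 5 with DESeq2. After cold exposure the log2 fold change was −2.76. In cold-exposed mice the value was −2.60 for *Atf4*.

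**Figure D1:**
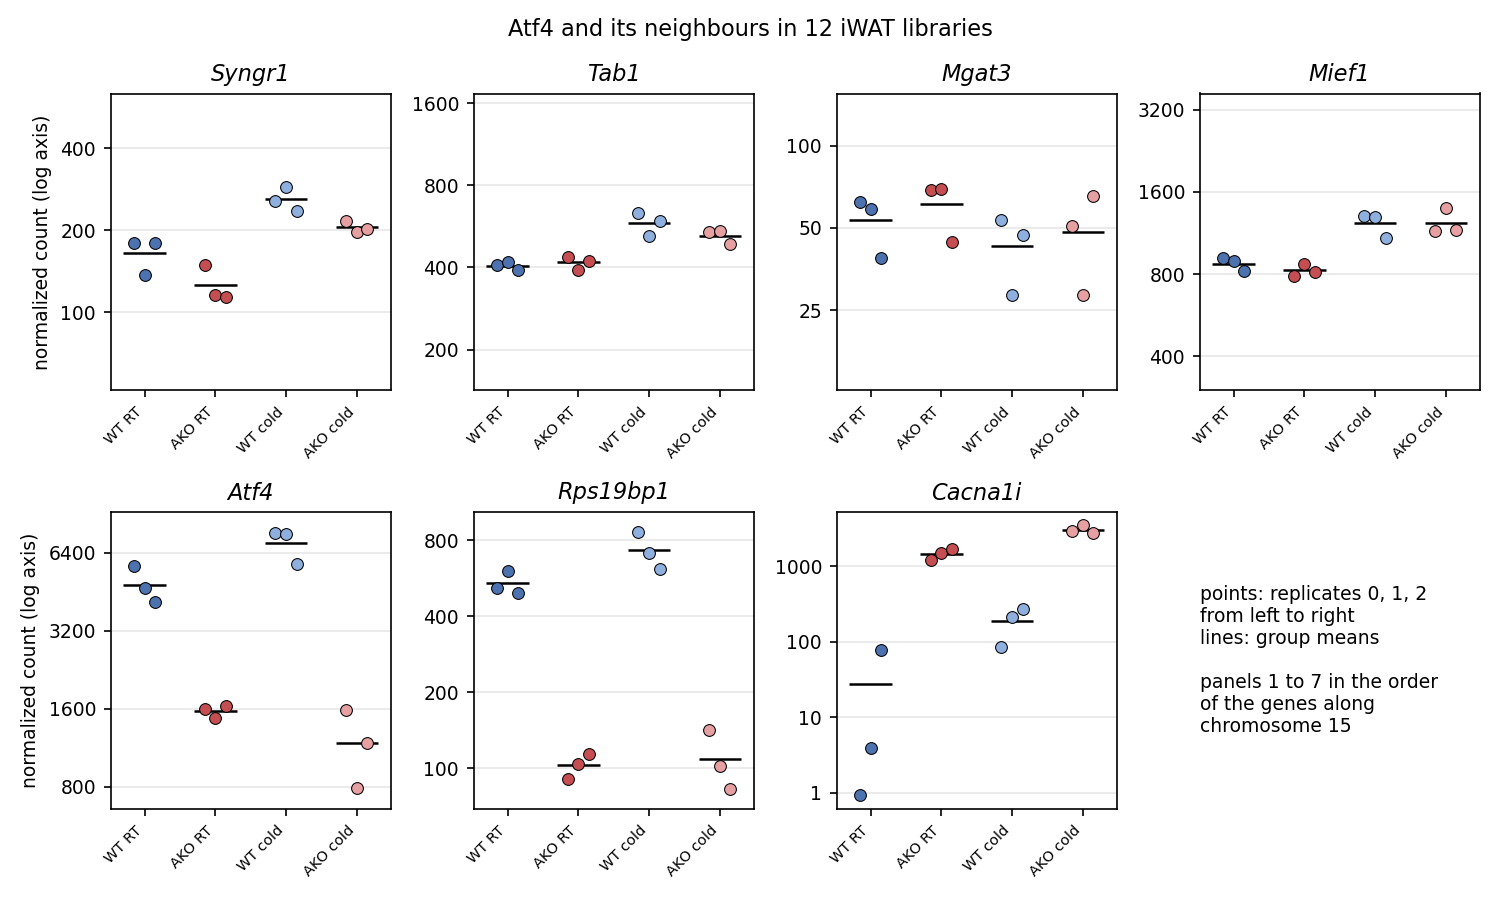
Normalized counts on log axes of *Syngr1*, *Tab1*, *Mgat3*, *Mief1*, *Atf4*, *Rps19bp1* and *Cacna1i* in the 12 iWAT libraries, with points for replicates and lines for the means of the 4 groups (n = 3). *Atf4* and *Rps19bp1* are low in both Atf4AKO groups, *Cacna1i* is high in both, from 1224 to 3477 normalized counts, and the other panels differ little between genotypes.

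*Cacna1i*, the next gene on that side, differed in the opposite direction. It had 0.919, 3.85 and 78.8 normalized counts in the Atf4WT RT libraries, which stand for 1, 4 and 85 reads. In Atf4AKO RT it had 1224, 1505 and 1701 normalized counts, from 1317, 1512 and 1833 reads. After cold exposure the Atf4WT libraries had 84.2, 215 and 268, and the Atf4AKO libraries had 2899.7, 3477 and 2755. Every Atf4AKO library lay above every Atf4WT library, whatever the temperature, and both genotypes had more *Cacna1i* in each cold library than in any RT library. The group means were 27.9 ± 44.1 (SD, n = 3) in Atf4WT RT, 189 ± 94.8 in Atf4WT cold, 1477 ± 239 in Atf4AKO RT and 3044 ± 382 in Atf4AKO cold. The spread of the Atf4WT RT group exceeded its mean, because replicate 2 stood far above the others.

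At RT, *Cacna1i* was 53.0-fold higher in Atf4AKO by the ratio of the means. Without Atf4WT RT replicate 2 the ratio was 619. In pooled reads, replicates 0 and 1 of Atf4WT RT held 5 reads against 4662 in Atf4AKO RT, a ratio of 628 for equal depth (95% exact interval 269 to 1935, counting error only). On the scale of log2(normalized count + 1), which understates the change of a gene with few reads, *Cacna1i* was higher by 7.34 at RT (standard error 1.02, 95% interval 5.09 to 9.59), and by 8.91 without Atf4WT RT replicate 2. This difference passed the DEG threshold and all 3 Atf4AKO libraries showed it, but its adjusted p-value in limma was 0.0762. The adjusted p-value ranged from 3.43e-05 without Atf4WT RT replicate 2 to 1.00 in a model of the RT groups alone. After cold exposure the log2 fold change was 4.15, and the ratio of the means was 16.1.

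The likeness to *Atf4* over the 12 libraries was described with Pearson's r of log2(normalized count + 1). The libraries form groups, so that r mostly reflects genotype and carries no p-value. They include the cold libraries on which *Rps19bp1* and *Cacna1i* were selected, so that the r of these 2 genes is not independent of that selection. *Rps19bp1* had r = 0.97 with *Atf4*. Among the remaining genes the highest r with *Atf4* was that of *Mthfd2* (0.87), a mitochondrial one-carbon enzyme gene and known ATF4 target. *Cacna1i* had r = −0.76 with *Atf4* and −0.77 with *Rps19bp1*. The members on the other side had r = −0.09 (*Mgat3*), 0.17 (*Tab1*) and 0.45 (*Syngr1*) with *Atf4*. The nearest gene, *Mief1*, had r = 0.04.

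The genes most like *Rps19bp1*, after *Atf4*, were *Tbx18* (r = 0.86), *Cars* (0.86), *Ankrd13d* (0.85) and *Cacna1e* (0.82). The lowest r with *Rps19bp1* belonged to *Slc35f5* (−0.86), *Zfp949* (−0.82), *Eif4a2* (−0.80), *Hikeshi* (−0.80) and *Cacna1i*. The genes most like *Cacna1i* were *Eea1* (0.85), *Naa35* (0.85), *Pcnp* (0.84), *Rpn1* (0.80) and *Hspa5* (0.80), the latter encoding the BiP chaperone of the endoplasmic reticulum. The lowest r with *Cacna1i* were those of *Tbx18* (−0.89), *Ddx19b* (−0.82), *Gse1* (−0.78), *Gper1* (−0.78) and *Rps19bp1*. *Tbx18*, on chromosome 9, had 162, 167 and 116 normalized counts in Atf4WT RT and 101, 75.7 and 91.8 in Atf4AKO RT. It had 131, 135 and 124 in Atf4WT cold and 102, 93.0 and 79.5 in Atf4AKO cold, so that the genotypes did not overlap at either temperature.

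**Figure D2:**
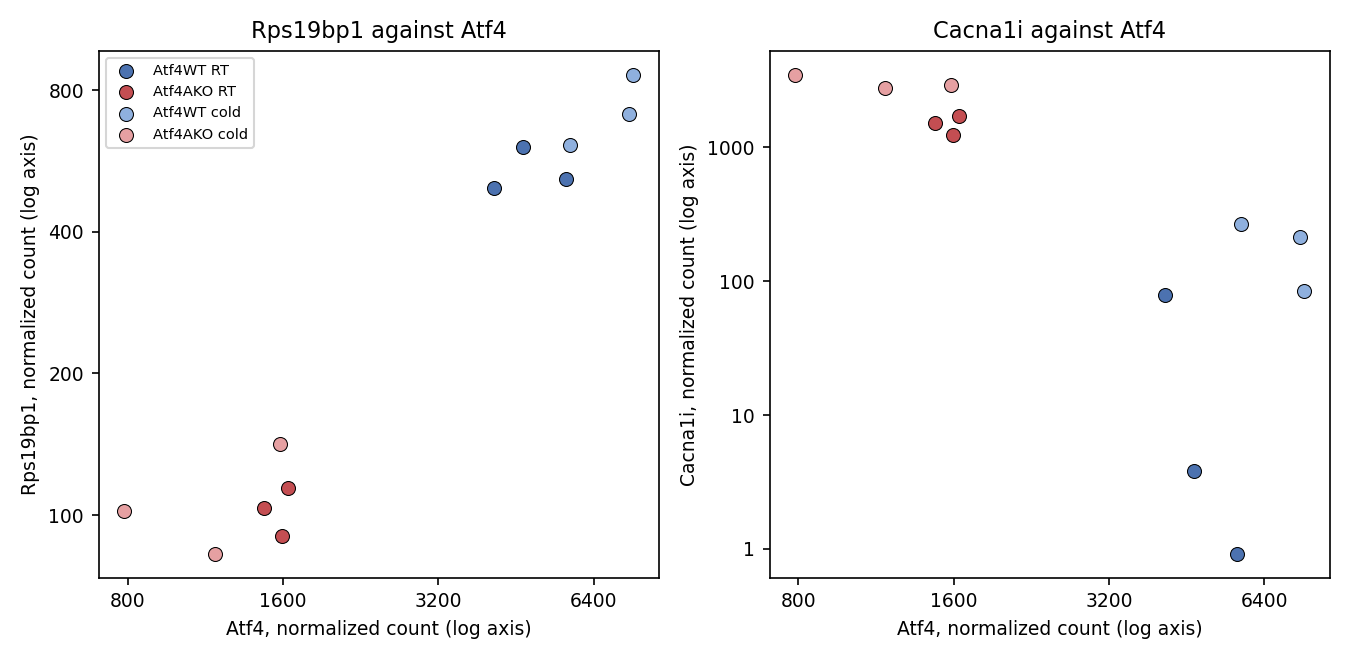
Normalized counts of *Rps19bp1* (left) and *Cacna1i* (right) against those of *Atf4* on log axes, with 1 point for each of the 12 libraries and colours for the 4 groups. The Atf4AKO libraries form a separate cloud at low *Atf4*, with *Rps19bp1* at 82.7 to 141 and *Cacna1i* at 1224 to 3477 normalized counts.

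By normalized counts, *Rps19bp1* fell further than *Atf4* at RT. The part of *Atf4* between the loxP sites is not given, so the *Atf4* counts may include reads of the deleted allele. The log2 ratio of *Rps19bp1* to *Atf4* was −3.45, −2.95 and −3.05 in the Atf4WT RT libraries and −4.14, −3.83 and −3.84 in Atf4AKO RT, with no overlap. After cold exposure the ratio was −3.15, −3.40 and −3.23 in Atf4WT and −3.48, −2.95 and −3.83 in Atf4AKO, and the genotypes overlapped. Among the 6 Atf4AKO libraries, the lowest *Atf4* count (788, cold replicate 1) did not coincide with the lowest *Rps19bp1* count (82.7, cold replicate 2). Per kilobase of annotated exon, *Rps19bp1* stood at 498 ± 52.8 (SD, n = 3) in Atf4WT RT against 2042 ± 335 for *Atf4*. On the same scale *Cacna1i* stood at 2.82 ± 4.48 in Atf4WT RT and 309 ± 38.7 in Atf4AKO cold, where *Atf4* stood at 501 ± 168.

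The members before *Atf4* differed by less than 1.5-fold between the genotypes in the main model. *Mgat3* had 62.5, 58.7 and 38.9 normalized counts in Atf4WT RT and 68.8, 69.7 and 44.5 in Atf4AKO RT, then 53.4, 28.5 and 47.1 in Atf4WT cold and 51.0, 28.3 and 65.5 in Atf4AKO cold. Its log2 fold change at RT was 0.19 (95% interval −0.60 to 0.98), and the groups overlapped at both temperatures. *Tab1* had 407, 418 and 390.3 in Atf4WT RT and 435, 392 and 424 in Atf4AKO RT, with a log2 fold change of 0.04 (95% interval −0.17 to 0.26). After cold exposure *Tab1* had 631, 524 and 592 in Atf4WT and 538, 543 and 489 in Atf4AKO. *Syngr1* had 179, 138 and 180 in Atf4WT RT and 149, 116 and 114 in Atf4AKO RT, where its log2 fold change was −0.39 (95% interval −0.74 to −0.04). In the cold *Syngr1* had 257, 288 and 235 in Atf4WT and 217, 197 and 202 in Atf4AKO, so that there the Atf4AKO libraries lay below the Atf4WT libraries. The adjusted p-values of these 3 members at RT were all 1.00 with limma. The intervals of *Mgat3* and *Syngr1* reach beyond a 1.5-fold difference and that of *Tab1* does not.

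*Mief1*, which lies closer to *Atf4* than *Rps19bp1* does, had 913, 891 and 819 normalized counts in Atf4WT RT and 790.1, 873 and 815 in Atf4AKO RT. Its counts were 1300.5, 1295 and 1085 in Atf4WT cold and 1146, 1393 and 1165 in Atf4AKO cold. The genotypes overlapped at both temperatures. The log2 fold change was −0.08 at RT (95% interval −0.31 to 0.14) and 0.01 after cold exposure (95% interval −0.22 to 0.23).

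The window was then widened to 1 Mb on each side of *Atf4*. It holds 39 protein-coding genes other than *Atf4*, of which 31 are listed, and all 31 were tested. At RT, 2 of the 31 passed the DEG threshold (*Rps19bp1* and *Cacna1i*), that is 6.45% against 0.463% of all tested genes. The log2 fold changes of the other 29 ran from −0.39 (*Syngr1*) to 0.27 (*Baiap2l2*). The median absolute log2 fold change was 0.11 in the window and 0.09 over all tested genes.

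After cold exposure 5 of the 31 (16.1%) passed, against 6.40% of all tested genes, and this contrast had served to choose *Rps19bp1* and *Cacna1i*. The 3 others were *Grap2*, *Apobec3* and *Cbx7*, with log2 fold changes of −3.998, −1.72 and −0.73 in that order. Their adjusted p-values were 0.0648, 0.0783 and 0.0969. *Grap2* encodes an adaptor of T cell receptor signaling and lies 315.1 kb after *Atf4*. *Apobec3*, a cytidine deaminase gene of antiviral defence, and *Cbx7*, a Polycomb gene, lie 339.3 and 284.1 kb before it. At RT these 3 genes had log2 fold changes of 0.18, 0.18 and −0.30, and the genotypes overlapped. The remaining 26 genes lay between −0.36 and 0.19 after cold exposure.

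**Figure D3:**
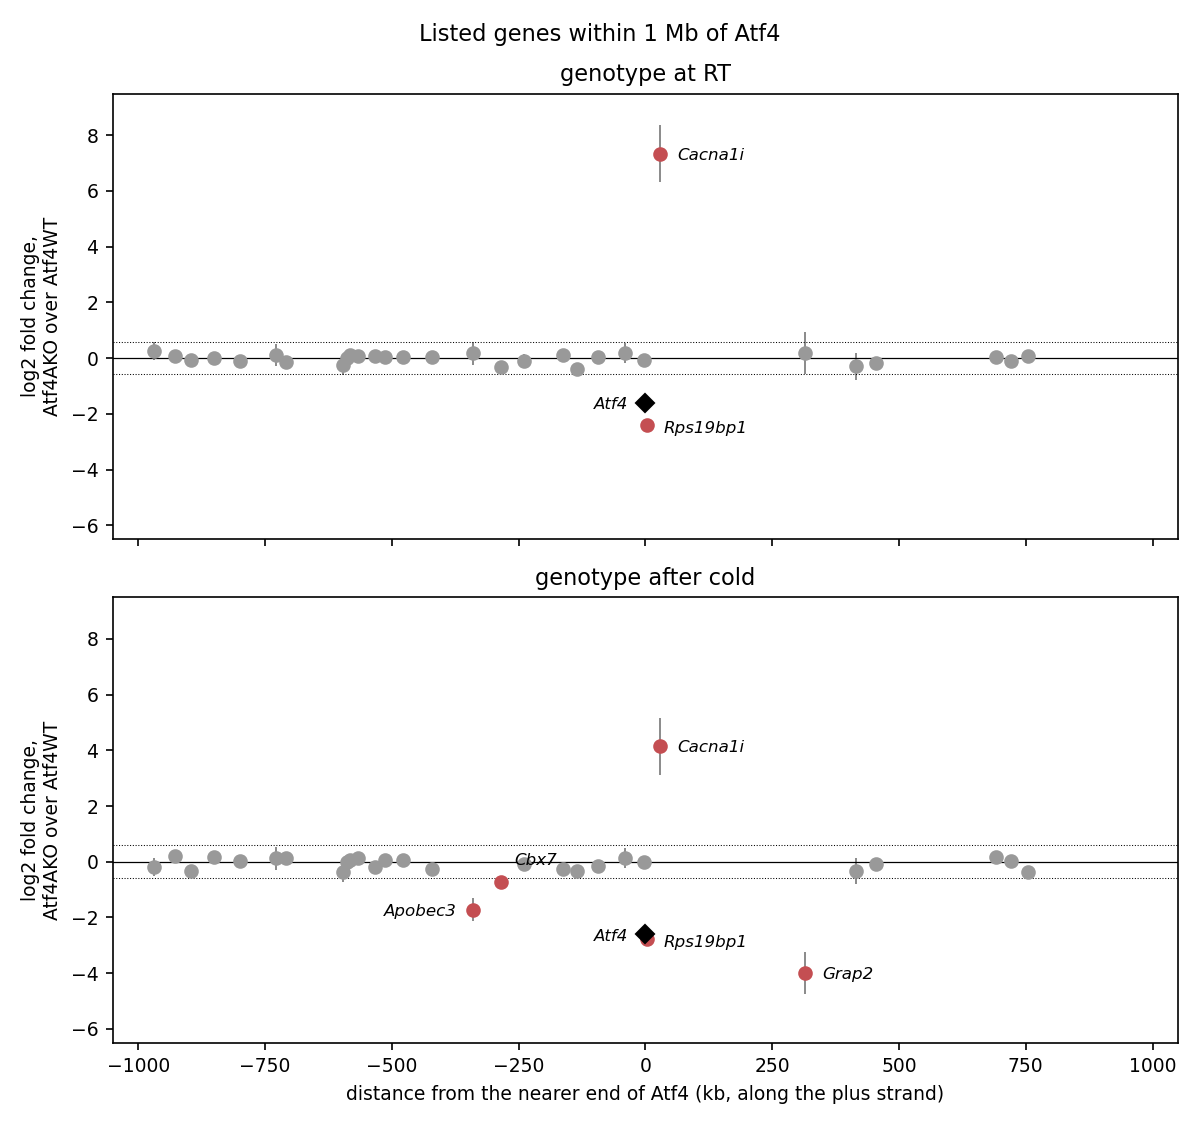
Log2 fold change of Atf4AKO over Atf4WT (bars: standard error) of the 31 listed genes within 1 Mb, against the distance from *Atf4* in kb, at RT (top) and after cold exposure (bottom). Red points passed the DEG threshold, the black diamond is *Atf4*, and dotted lines mark a 1.5-fold change. At RT *Rps19bp1* and *Cacna1i* stand apart from the 29 other neighbours.

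Markers of lymphocytes differed most after cold exposure. The 8 listed B cell markers (of 11 named, with *Cd79a* the most abundant) summed to 112, 89.5 and 3650.3 normalized counts in Atf4WT RT and to 472, 80.7 and 169 in Atf4AKO RT. Their sums were 3657, 7473 and 12501 in Atf4WT cold and 318, 76.0 and 86.0 in Atf4AKO cold. The 10 listed T cell markers (of 11, led by *Lck*) summed to 250, 179 and 676 in Atf4WT RT, 324, 279 and 754 in Atf4AKO RT, 888, 5929 and 7161 in Atf4WT cold and 403, 160 and 198 in Atf4AKO cold. After cold exposure 8 of 8 B cell and 10 of 10 T cell markers were lower in Atf4AKO by the DEG threshold with limma, edgeR and DESeq2, against 6.04% of all tested genes with limma. At RT the log2 fold changes of the 8 B cell markers ran from −1.36 to −0.36, with 0 called by limma, 1 by edgeR and 2 by DESeq2. Without Atf4WT RT replicate 2 they ran from 0.16 to 1.65, with 0 called by limma. The T cell markers ran from −1.05 to 0.64 at RT, with 0 calls by the 3 tools. Between Atf4WT RT and cold all 18 were higher with limma, against 10.9% of all tested genes, but edgeR and DESeq2 each called only 4 of the 8 B cell markers beside 10 of 10 T cell markers. The B cell markers *Fcer2a*, *Ighm* and *Ighd* and the T cell marker *Trac* have no row, and every listed gene has at least 1 read in each library.

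With the mean log2 value of these 18 markers (the lymphocyte score) as a covariate, the cold log2 fold change moved to −0.09 for *Grap2*, 0.24 for *Apobec3* and −0.09 for *Cbx7*. None of the 3 then passed the DEG threshold. In the cold the scores of the genotypes did not overlap, at 7.28 to 9.80 in Atf4WT and 3.43 to 4.997 in Atf4AKO. The model separates genotype from score there only by extrapolation, and the cold values with the covariate are a description. The same holds for the cold response in Atf4WT, whose RT libraries had scores of at most 7.09. With the covariate 2 of the 31 neighbours passed after cold exposure (6.45%), and the share of all tested genes fell from 6.40% to 1.63%. *Rps19bp1* and *Cacna1i* were chosen on this contrast, so that this count of neighbours is a description and no test. For *Cacna1i* the cold log2 fold change went from 4.15 to 8.52 with the covariate, and at RT from 7.34 to 7.54. *Rps19bp1* kept its direction, at −2.39 at RT and −2.97 after cold exposure. The cold values of the genes before *Atf4* moved as well, from 0.13 to −0.51 for *Mgat3*, from −0.15 to −0.25 for *Tab1*, from −0.34 to −0.07 for *Syngr1* and from 0.01 to −0.30 for *Mief1*. At RT their values with the covariate were 0.16, 0.04, −0.38 and −0.10 in the same order. The part of lymphocyte content in the values of *Cacna1i* was not tested.

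Within Atf4WT, *Cacna1i* was lowest in the pair of libraries with the lowest lymphocyte scores, though the order within that pair was the opposite. The 3 Atf4WT RT libraries had lymphocyte scores of 4.04, 3.66 and 7.09 beside 0.919, 3.85 and 78.8 *Cacna1i* counts. The Atf4WT cold libraries had scores of 7.28, 9.31 and 9.80 beside 84.2, 215 and 268 counts. In Atf4AKO, scores of 5.20, 3.89 and 5.04 at RT and 4.997, 3.43 and 3.77 after cold exposure stood beside counts of at least 1224 in every library. Atf4WT RT replicate 2 also had the highest level of the skeletal muscle marker *Acta1*, 35541 normalized counts against 390 and 789 in replicates 0 and 1. *Acta1* was 13734 in Atf4WT cold replicate 0, 38.0 and 42.4 in the other Atf4WT cold libraries and at most 1314 in Atf4AKO. The part of muscle in these values was not tested. Of the other cell type lists, 4 macrophage, 3 endothelial, 3 fibroblast and 4 thermogenic adipocyte markers gave 0 calls between genotypes with limma, edgeR or DESeq2. The epithelial (5), erythroid (2) and neuroendocrine (1) markers are not listed.

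**Figure D4:**
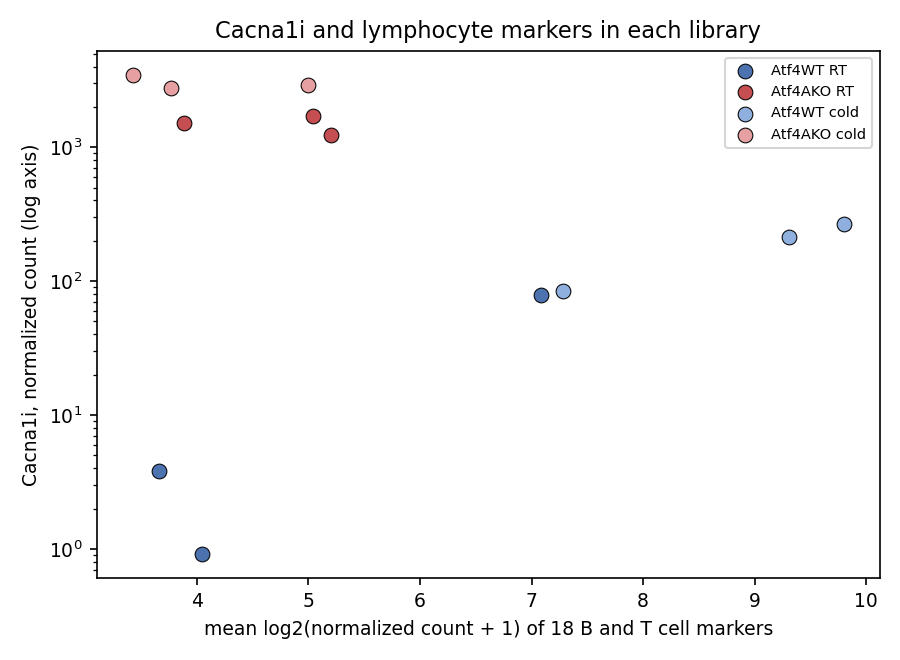
Normalized count of *Cacna1i* (log axis) against the lymphocyte score, the mean log2(normalized count + 1) of 18 B and T cell markers, with 1 point for each of the 12 libraries. The 4 Atf4WT libraries with scores of 7.09 to 9.80 have 78.8 to 268 *Cacna1i* counts and the other 2 have 0.919 and 3.85, while all Atf4AKO libraries lie at 1224 or above at scores of at most 5.20.

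Cold exposure was compared with RT within each genotype. The cold libraries also belong to the contrast that selected *Rps19bp1* and *Cacna1i*, so their values are given here without a test. In Atf4WT, 1 of the 3 members taken by position passed the DEG threshold (21.2% of all tested genes did) and 2 of 3 had an adjusted p-value under 0.05 (31.9% of all). *Syngr1* was 0.65 higher after cold exposure on the log2 scale (standard error 0.16, adjusted p = 0.0103), with all 3 cold libraries above the RT libraries. It no longer passed with the lymphocyte score as a covariate (0.43, adjusted p = 0.298) or without Atf4WT RT replicate 1 (0.53) or Atf4WT cold replicate 1 (0.58). *Tab1* was 0.52 higher (standard error 0.10, adjusted p = 0.00291), under the 1.5-fold limit, which it passed with the lymphocyte score (0.60) and without Atf4WT cold replicate 1 (0.59). The value of *Cacna1i* was 4.24 (standard error 1.02), 5.81 without Atf4WT RT replicate 2 and 0.66 with the lymphocyte score as a covariate. As a ratio of the means *Cacna1i* was 6.80-fold higher in the cold with all libraries and 79.4-fold higher without that replicate. The log2 fold change was 0.43 for *Rps19bp1*, 0.53 for *Atf4* (adjusted p = 0.0805) and −0.32 for *Mgat3* (adjusted p = 0.520), which became 0.20 with the lymphocyte score. The adjusted p-value of *Atf4* was 0.0461 with the replicate numbers as a block and 0.0450 in a model of the Atf4WT libraries alone. Over all alternatives it ranged from 0.0232 to 0.324. For *Rps19bp1* and *Atf4* alike, each cold library of Atf4WT lay above each RT library.

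In Atf4AKO, 1 of the 3 members taken by position passed the DEG threshold (17.2% of all tested genes did) and 2 had an adjusted p-value under 0.05 (25.9% of all). *Syngr1* rose by 0.71 (standard error 0.16, adjusted p = 0.00825). *Tab1* was 0.33 higher (adjusted p = 0.0312), but its adjusted p-value was 0.0759 in a model of the Atf4AKO libraries alone and reached 0.0981 over the alternatives. *Cacna1i* was 1.05 higher in the cold, a 2.06-fold ratio of the means, and 1.64 higher with the lymphocyte score as a covariate. Its standard error of 1.02 was shared with the dispersed Atf4WT RT group. The log2 fold change was 0.05 for *Rps19bp1*, −0.46 for *Atf4* (adjusted p = 0.137) and −0.38 for *Mgat3* (adjusted p = 0.458), and the RT and cold libraries of these 3 genes overlapped.

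The cold response in Atf4AKO minus that in Atf4WT was −0.37 for *Rps19bp1*, −3.19 for *Cacna1i* and −0.997 for *Atf4* on the log2 scale. These carry no p-value, since they contain the contrast that chose the genes. The value of *Cacna1i* was −4.76 without Atf4WT RT replicate 2 and 0.98 with the lymphocyte score as a covariate. For *Mgat3*, *Tab1* and *Syngr1* the difference was −0.06, −0.19 and 0.05, with adjusted p-values of at least 0.977, and −0.67, −0.28 and 0.31 with the lymphocyte score.

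Relatives and partners of the members were examined from lists. Of 7 other calcium channel pore genes, 6 were tested, and 0 passed the DEG threshold between genotypes with limma at RT or after cold exposure. With edgeR 1 passed at RT, with DESeq2 0, while limma gave 0 unadjusted p-values below 0.05. The largest differences on the list were those of *Cacna1s*, the skeletal muscle channel gene, with log2 fold changes of −2.26 at RT (95% interval −6.68 to 2.15) and −2.81 after cold exposure (95% interval −7.22 to 1.60). *Cacna1s* had 741 normalized counts in Atf4WT RT replicate 2, the library with the most *Acta1*, against 0.919 and 0.962 in replicates 0 and 1 and at most 5.57 in Atf4AKO RT. The list did not hold *Cacna1e*, another pore gene, which was named above for its likeness to *Rps19bp1*. Its log2 fold change was −1.48 at RT and −2.98 after cold exposure, where it passed the DEG threshold. *Cacna1g*, a T-type channel gene like *Cacna1i*, had 66.2, 31.8 and 45.4 normalized counts in Atf4WT RT and 38.1, 116 and 59.4 in Atf4AKO RT. *Cacna1h*, the third T-type gene, lay between 10.3 and 43.0 in the 12 libraries. For *Rps19bp1*, the partner genes *Sirt1* and *Rps19* had log2 fold changes of −0.00 and 0.20 at RT and of 0.03 and −0.07 after cold exposure. The ribosome assembly genes *Bop1* and *Wdr43* lay between −0.10 and 0.12 in these comparisons. None of the 3 partners of *Tab1* (*Map3k7*, *Tab2* and *Tab3*), the 6 glycan branching genes tested beside *Mgat3* or the 4 relatives of *Syngr1* passed the DEG threshold between genotypes with limma, edgeR or DESeq2, though limma gave 1 relative of *Syngr1* an unadjusted p-value below 0.05 after cold exposure.

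Of 34 known ATF4 target genes, 33 were tested. At RT, 1 was lower in Atf4AKO by the DEG threshold (0.283% of all tested genes were), namely *Atf5*, with a log2 fold change of −0.68 and an adjusted p-value of 0.344. After cold exposure 7 were lower with limma, 6 with edgeR and 7 with DESeq2, and 6.04% of all tested genes were lower with limma. The largest of these changes was −2.08, for *Mthfd2*. The median log2 fold change of the 33 targets was −0.04 at RT and −0.12 after cold exposure, and that over all tested genes was 0.01 and 0.05. At RT the log2 fold change of *Rps19bp1* was −2.38, below that of each of the 33 targets, whose lowest was −0.68. *Rps19bp1* had been selected for its difference in the cold, and the cause of its change was not tested.

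*Adipoq*, whose promoter drives Cre, served as a comparison locus. Its window of 1 Mb on each side holds 14 listed neighbours, of which 12 were tested. At RT 0 of the 12 passed the DEG threshold with limma (0.463% of all tested genes did), against 0 with edgeR and 1 with DESeq2. The median absolute log2 fold change of the 12 was 0.21 at RT and 0.20 after cold exposure, against 0.09 and 0.14 over all tested genes and 0.11 and 0.16 in the *Atf4* window. Without Atf4WT RT replicate 2, Atf4AKO RT replicate 0 or Atf4AKO RT replicate 1, 1 of the 12 passed at RT, and without Atf4AKO cold replicate 1 only 1 passed after cold exposure. The count after cold exposure was also 1 with the lymphocyte score as a covariate and 0 at an adjusted p-value under 0.05. After cold exposure 2 of 12 passed (6.40% of all did), *Eif4a2* and *St6gal1*, named after their values were seen. *Eif4a2*, a translation initiation factor gene 32.4 kb before *Adipoq*, had 11010, 11801 and 15557 normalized counts in Atf4WT RT and 15384, 15734 and 23421 in Atf4AKO RT. In the cold it had 10072, 9784 and 10496 in Atf4WT and 15101, 17393 and 14842 in Atf4AKO, without overlap. Its log2 fold change was 0.50 at RT (adjusted p = 1.00) and 0.64 after cold exposure (adjusted p = 0.107). *St6gal1*, a sialyltransferase gene, had a cold log2 fold change of −0.88, which became −0.00 with the lymphocyte score as a covariate.

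**Figure D5:**
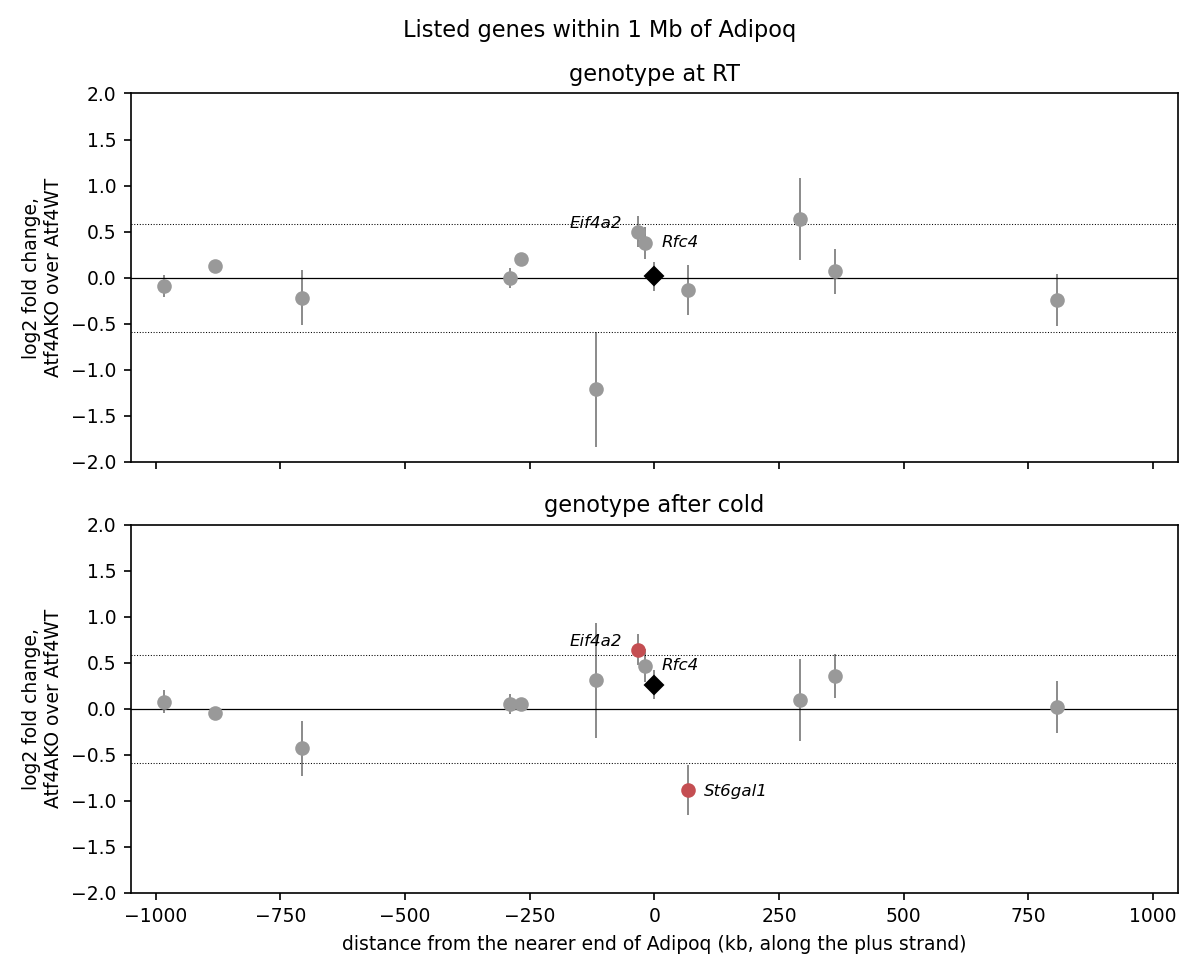
Log2 fold change of Atf4AKO over Atf4WT (bars: standard error) of the 12 tested genes within 1 Mb of *Adipoq* (black diamond), against the distance in kb, at RT (top) and after cold exposure (bottom). Red points passed the DEG threshold, dotted lines mark a 1.5-fold change, and *Eif4a2* has a value of 0.50 at RT and 0.64 after cold exposure.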

How the data were processed

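RNA of 12 iWAT libraries was analysed. The authors deposited a signal per gene, its reads over a size factor from pyDESeq2. Before that, SOAPnuke filtered the reads, STAR aligned them to mm10 and featureCounts counted them. When a library is divided by its lowest value, 100% of the values are whole within 0.01 reads.

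Genes were tested with limma 3.58.1 under R 4.3.3 (lmFit, eBayes with trend) on log2(normalized count + 1), with 4 group means, for 13404 genes with a mean of at least 10. P-values were adjusted over all tested genes (Benjamini-Hochberg). Called genes passed 1.5-fold and an unadjusted p-value of 0.05. The test was checked on simulated reads, but no outcome of that check is used here. The alternatives included edgeR 4.0.16 and DESeq2 1.42.0 on recovered reads. Positions came from GENCODE and promoters from RefSeq. Named genes were the members, neighbours within 1 Mb, lists of relatives, partners, ATF4 targets and cell type markers, and the 5 genes at each end of the likeness order. Members and lists were chosen with earlier results of these data known. Libraries are biological replicates as the labels number them. In the main model p-values set differences of group means against the spread between libraries, pooled over the 4 groups.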

Additional observations from a re-analysis of the deposited data

How the results depend on the processing

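Alternatives tried were a pseudocount of 0.5 or 5, no filter or one at a mean of 50, only the groups compared, 75th percentile scaling, the replicate block, the lymphocyte score as a covariate, each library left out, and edgeR and DESeq2 on recovered reads. The differences of *Rps19bp1* and *Cacna1i* at RT kept their direction and the DEG threshold in all 22. Leaving out 1 library gave −2.46 to −2.30 for *Rps19bp1* and 6.22 to 8.91 for *Cacna1i*.

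The count of called genes at RT, 62 in the main model, was 29 with a filter at 50, 138 with edgeR (23 higher, 115 lower, against 24 and 38) and 101 with DESeq2 (24 and 77), and 49 to 130 when a library was left out (130 without Atf4WT RT replicate 0, 108 without Atf4AKO RT replicate 0, 118 without Atf4AKO RT replicate 2). After cold exposure it was 858, 219 with the lymphocyte score and 587 to 1068 with a library left out. For the difference of the cold responses it was 621, 317 with the lymphocyte score and 403 (without Atf4WT cold replicate 2) to 872 with a library left out. In the cold responses it stayed within 1.5 times for each alternative.

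The number of called neighbours was 2 at RT and 5 after cold exposure with each library left out in turn. At an adjusted p-value under 0.05 it was 1 of 31 and 1 of 31 (3.23%, against 0.00746% and 0.0298% of all tested genes). The 1 called after cold exposure was *Rps19bp1* or *Cacna1i*, which were chosen on that contrast. After cold exposure it was 2 of 31 with the lymphocyte score (6.45% against 1.63%) and 11 of the 84 tested in a window of 2 Mb (13.1% against 6.40%). These cold counts include the genes chosen on that contrast and are given as a description, without a test. With the lymphocyte score, the difference of the cold responses of *Cacna1i* turned from −3.19 to 0.98 and the cold value of *Apobec3* from −1.72 to 0.24. The scores of the genotypes did not overlap in the cold, so these values with the score rest on extrapolation. The cause of these moves was not tested. The cold call of *Syngr1* in Atf4WT was lost with the score (0.43), without Atf4WT RT replicate 1 (0.53) and without Atf4WT cold replicate 1 (0.58).

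In the pairing check, 9 of 18 same-numbered pairs of libraries had correlated deviations (r over 0.1), among them all 6 pairs of replicate 1. The mean r was 0.11 for same-numbered and −0.05 for other pairs, and 6 of 12 libraries correlated best with their own number. The labels state no pairing, and the numbers do not pair the libraries throughout. With the replicate block, 69 genes were called at RT, 1 *Adipoq* neighbour passed at RT, and adjusted p-values were 0.0490 for *Cacna1i* and *Atf4* at RT and 0.0458 for *Grap2* and 0.0489 for *Apobec3* after cold exposure (over all alternatives 3.43e-05 to 1.00, 1.35e-09 to 0.517, 5.54e-05 to 1.00 and 0.000178 to 0.999). The block also gave 0.0458 for *Zfp949* after cold exposure (0.0648 in the main model) and 0.0461 for the cold response of *Atf4* in Atf4WT (0.0805 in the main model).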

Other observations

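*Zfp949* and *Tbx18*, which appear at the ends of the likeness order of *Rps19bp1*, both lie on chromosome 9, with 816.8 kb between them. They were singled out after their values were seen. *Zfp949*, a zinc finger gene, had 306, 307 and 454 normalized counts in Atf4WT RT and 474, 537 and 973 in Atf4AKO RT. It had 340.0, 342 and 307.0 in Atf4WT cold and 1007, 762 and 778 in Atf4AKO cold, so that each Atf4AKO library lay above the Atf4WT libraries of its temperature. *Tbx18*, a T-box transcription factor gene, lay below them in the same way, with 60.4% of the Atf4WT mean at RT and 70.2% after cold exposure.

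*Rfc4*, the gene nearest to *Adipoq* among those tested, had 180, 131 and 191 normalized counts in Atf4WT cold and 241, 229 and 216 in Atf4AKO cold. Like its neighbour *Eif4a2*, it did not overlap between the genotypes after cold exposure, with a difference of 0.47 on the log2 scale (adjusted p = 0.297 from limma).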
